A study of Mus musculus with 36 samples.

Results

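*Ift88* and 9 of its partners in the intraflagellar transport complex B (IFT-B) were followed at the transcript level in mouse cells depleted of *Ift88* by siRNA. The members were the rows of the deposited gene tables whose gene name was *Ift88*, *Ift81*, *Ift74*, *Ift52*, *Ift46*, *Ift27*, *Ift22*, *Ift80*, *Ift57* or *Ift20*, which gave 10 of the 53421 genes in the count table. Each name matched a row, and all 10 passed the filter on low counts in every comparison. Every library came from 1 line of mouse chondrocytes of fibroblast-like form, immortalised conditionally. They were transfected with a non-targeting siRNA pool (NT) or with a pool of siRNAs against *Ift88* (IFT88siRNA), and both groups were sampled without cytokine (0 h, medium alone) and under IL-1β at 10 ng/ml, early (1, 2 and 4 h) and late (8 and 24 h). Each of the 12 conditions had 3 libraries of poly(A) RNA, 36 in all. Nothing in the labels says that replicates came from separate cultures, so p-values measure the spread between these libraries, which may be technical. The labels count the time course from a set time after transfection and do not say whether harvests were staggered, so the time in IL-1β and the time since transfection cannot be told apart.

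IFT-B is the complex that carries cargo from the base to the tip of the primary cilium, drawn along the axonemal microtubules by the kinesin-2 motor, whereas IFT-A and the dynein-2 motor serve the way back. Its core holds IFT88, a protein of tetratricopeptide repeats, with IFT81, IFT74, IFT52, IFT46, IFT27 and IFT22, and its peripheral part holds IFT80, IFT57 and IFT20 among others. Loss of IFT88 impairs assembly of the cilium, and the hypomorphic mouse allele of the gene is known as Oak Ridge polycystic kidney. The question put to the data was whether depleting 1 subunit changes the transcripts of the others.

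Total counts per library lay between 19337022 and 38304127, with a median of 21672803.5 in NT and 25873754 in IFT88siRNA. At 0 h and at 1 h every IFT88siRNA library was deeper than every NT library. On the TPM scale, 4 of 7 chondrocyte markers were below 1 in NT at 0 h (*Acan* 0.126, *Col9a1* 0.0439, *Matn3* 0.132 and *Prg4* 0.816), whereas *Sox9* stood at 11.3, *Comp* at 9.78 and *Col2a1* at 8.35. The 6 fibroblast markers ranged from 7.89 (*Pdgfra*) and 12.4 (*Thy1*) to 771 (*Col1a2*) and 2180 (*Vim*). Of 5 macrophage markers, *Adgre1*, *Csf1r* and *Ptprc* had 0, 0.0435 and 0.109, and *Lyz2* and *Cd68* had 2.25 and 10.7. The 3 endothelial markers lay between 0.0192 (*Cdh5*) and 0.769 (*Tek*), and the summed TPM of 5 motile cilia genes between 2.34 and 6.07 in all libraries.

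The members differed widely in level before IL-1β. TPM values, which are scaled for transcript length and library size, placed *Ift46* first in NT at 0 h with 192 ± 10.3 (mean ± SD, n = 3). *Ift57* followed with 79.1 ± 2.63, *Ift74* with 72.2 ± 1.07 and *Ift27* with 66.1 ± 3.30. *Ift80* (54.3 ± 3.67), *Ift20* (53.1 ± 5.80) and *Ift22* (49.0 ± 3.53) came next, and the libraries of *Ift80* and *Ift20*, and those of *Ift20* and *Ift22*, overlapped. *Ift52* had 25.8 ± 0.981, *Ift81* 19.3 ± 1.14 and *Ift88* 7.31 ± 0.737. All other neighbours in this order were separated in every library. CPM values, counts scaled for library size alone by TMM, gave when divided by exonic length another order at the top, with *Ift74* first, *Ift57* second, *Ift20* at rank 3 and *Ift46* at rank 4. *Ift81* and *Ift88* were at ranks 9 and 10 on both scales, so *Ift88* was the least abundant of the 10 transcripts.

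**Figure D1:**
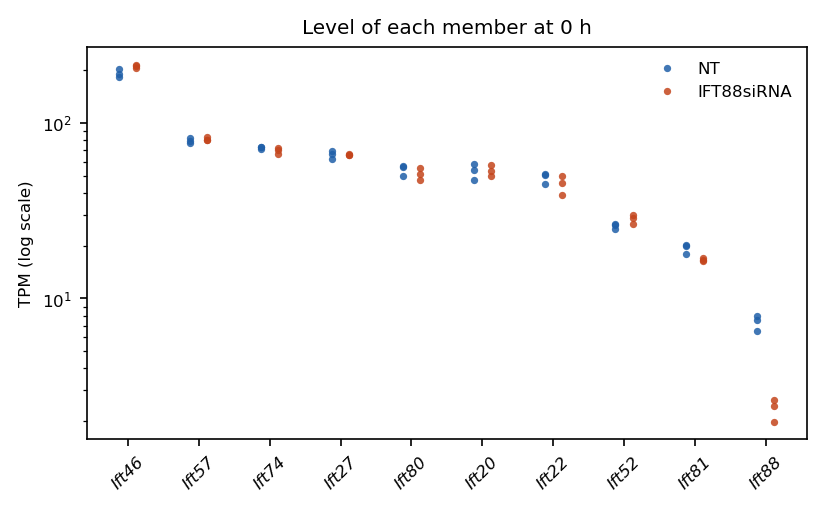
TPM of each member at 0 h on a log axis, one point per library, NT in blue and IFT88siRNA in orange (3 libraries each). Members are ordered by their NT mean, from *Ift46* at 192 to *Ift88* at 7.31, and *Ift88* is the only member whose IFT88siRNA libraries stand far below the NT libraries.

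The genes lie on 9 chromosomes of GRCm38, and all 10 are annotated as protein coding. *Ift88* spans chr14:57424062-57517936 on the plus strand, *Ift46* chr9:44767908-44793447, *Ift52* chr2:163017354-163046141 and *Ift57* chr16:49699233-49765126, all on the plus strand. *Ift27* (chr15:78159463-78174107) and *Ift80* (chr3:68892499-69004570) are on the minus strand. Exons of *Ift88* share 67 bases (1.45% of their length) with the antisense gene *Ift88os*, and exons of *Ift57* share 225 bases (7.86%) with the antisense gene *Gm15518*. The counting was done with default parameters, without regard to strand, so reads on these bases cannot be assigned to a strand. None of the other 8 members shared exon bases with another gene.

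Many ciliary genes are known to carry the X-box, the binding element of RFX transcription factors, near their start. RefSeq promoters (GRCm38.p6, 250 bases before the start to 50 after) were found for 8 of the 10 members, not for *Ift80* and *Ift81*, and were searched on both strands for the letters GTTGCCA, the short form of the element, and for the X-box with both arms, whose spacer may vary. The short form was present in the promoters of *Ift27* and *Ift88*, against 4.38% of 32851 promoters, and the X-box with both arms in that of *Ift57* only among the 8, against 1.53% of all. The stretches of *Ift57* (chr16:49699226-49699254, plus strand) and *Ift27* (chr15:78174076-78174098, minus strand) are shown 5′ to 3′ along the gene, with the match in capitals. They were chosen because their match lies upstream of the RefSeq start. That of *Ift57* is to the X-box with both arms, and that of *Ift27* to the short form. The gene spans given above begin further upstream, and both matches lie inside them.
Ift57: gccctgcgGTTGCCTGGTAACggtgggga
Ift27: tgatgatgGTTGCCAggagcctg
The *Ift57* match runs from base -60 to base -48, beside a further one from -87 to -74, and that of *Ift27* from -9 to -3, counted from the RefSeq start. These matches describe sequence only, and binding was not measured.

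*Ift88* was lower in every IFT88siRNA library than in every NT library at each of the 6 time points. The NT libraries had 9.17, 8.66 and 9.36 CPM at 0 h, and the IFT88siRNA libraries 2.59, 2.89 and 2.82. At 24 h the NT libraries had 6.06, 6.36 and 5.93 CPM and the IFT88siRNA libraries 1.98, 2.26 and 2.36. The mean left in IFT88siRNA was 30.5% of NT at 0 h, 30.0% at 1 h, 23.0% at 2 h, 28.1% at 4 h, 29.4% at 8 h and 35.97% at 24 h. With edgeR's quasi-likelihood test and Benjamini-Hochberg adjustment over all genes tested, the log2 fold change was -1.71 ± 0.109 (SE) at 0 h (adjusted p = 3.26e-10), -1.74 ± 0.113 at 1 h (8.09e-08) and -2.12 ± 0.133 at 2 h (3.89e-05). It was -1.83 ± 0.173 at 4 h (adjusted p = 1.73e-05), -1.76 ± 0.220 at 8 h (0.00189) and -1.47 ± 0.123 at 24 h (2.65e-06) in the same test. Across the 6 time points the mean log2 fold change was -1.77 ± 0.0587 (adjusted p = 1.3e-22), the 3rd lowest of 16710 genes. *Ift88* passed both the adjusted p of 0.05 and a fold change of 1.5 at every time point, as did 2.23%, 2.66%, 0.496%, 0.432%, 0.692% and 1.15% of the genes tested at 0, 1, 2, 4, 8 and 24 h. Raw counts of *Ift88* ranged from 103 to 236 in NT and from 29 to 94 in IFT88siRNA libraries.

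The IFT88siRNA libraries spread most at 8 h, where replicates 1, 2 and 3 had 1.53, 1.59 and 3.0 CPM. Without IFT88siRNA replicate 3 at 8 h the log2 fold change there was -2.17. TPM values gave the same direction at every time point, but with limma on log2(TPM + 1) the call was lost at 4 h (-1.35, adjusted p = 0.113) and at 8 h (-1.62, adjusted p = 0.0989).

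**Figure D2:**
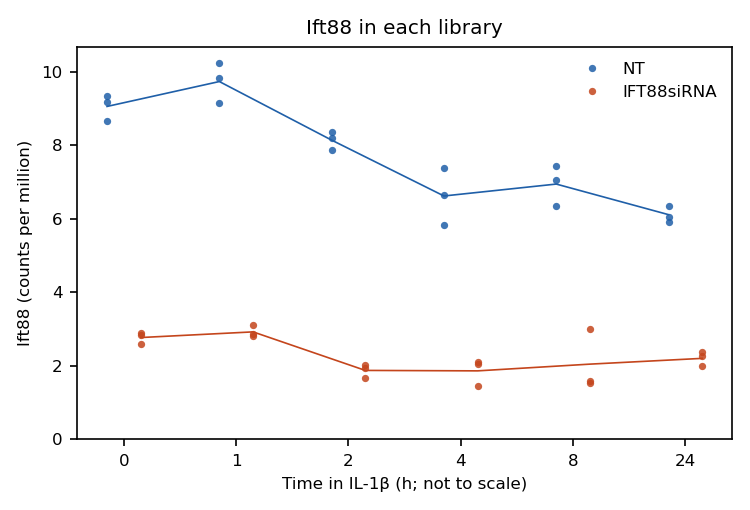
*Ift88* in CPM against the time in IL-1β (categories, not to scale), one point per library and lines through the means of 3 libraries, NT in blue and IFT88siRNA in orange. The IFT88siRNA libraries lie at or below 3.10 CPM and the NT libraries at or above 5.83 CPM at every time point.

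The partner transcripts changed little. Averaged over the 6 time points in a fit of all 36 libraries, 4 of the 9 partners passed an adjusted p of 0.05, against 39.7% of 16710 genes, and none passed a fold change of 1.5 as well, against 1.93%. *Ift52*, *Ift46* and *Ift27* rose and *Ift80* fell. The median absolute log2 fold change of the 9 was 0.0504, beside 0.0889 over all genes, which were not matched to the partners for level. The 95% confidence intervals of the 9 together ran from -0.127 to 0.168, inside the limits of ±0.585 that a 1.5-fold change sets. The share of partners past the adjusted p was thus near that of all genes.

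Among the core subunits, *Ift52*, whose product binds IFT88, and *Ift46*, whose product binds IFT52, were higher in IFT88siRNA libraries. *Ift52* had 25.7, 26.6 and 27.0 CPM in NT at 0 h against 28.1, 28.1 and 27.9, and 25.8, 25.6 and 27.5 CPM at 8 h against 28.7, 28.6 and 28.4. In CPM the IFT88siRNA libraries were above all NT libraries of the same time at 0, 2, 4, 8 and 24 h. The groups overlapped at 1 h, and the margin at 4 h was narrow (22.96 against 22.94). At the times when *Ift52* was apart, 20.8% to 33.5% of all genes were too. On TPM values *Ift52* was apart at 2 h only, and at 24 h IFT88siRNA began at 23.4 with NT up to 27.3. The mean log2 fold change was 0.11 ± 0.0224 (SE; adjusted p = 1.13e-04, edgeR). *Ift46* had 73.2, 69.1 and 70.6 CPM in NT at 0 h against 75.8, 77.4 and 84.3, and 72.3, 72.0 and 70.3 at 24 h against 75.2, 77.0 and 75.7. Its groups were apart in CPM at 0, 1 and 24 h, as were 33.5%, 33.9% and 25.3% of all genes. On TPM values its groups were apart at 0 and 2 h, and no share of all genes was computed on that scale. Its mean log2 fold change was 0.09 ± 0.0200 (adjusted p = 3.39e-04, edgeR).

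*Ift27*, which encodes a small GTPase of the core, had 29.4, 28.0 and 30.7 CPM in NT at 1 h against 34.0, 34.0 and 32.7. Its groups were apart in CPM at 1 and 8 h, as were 33.9% and 23.7% of all genes. Its mean log2 fold change was 0.12 ± 0.0260 (adjusted p = 5.53e-04, edgeR), with an adjusted p of 0.0503 without replicate 2 of every condition. For *Ift22*, which encodes another GTPase-like subunit, the value was -0.01 ± 0.0277 (adjusted p = 0.851), and the groups overlapped at every time point. *Ift74* and *Ift81*, whose products bind tubulin together, had mean log2 fold changes of -0.02 (95% interval -0.0641 to 0.0260) and -0.01 (-0.0654 to 0.0379), with adjusted p of 0.522 and 0.701. *Ift81* overlapped between the groups at all 6 time points.

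Of the peripheral subunits, *Ift80* fell. It had 98.9, 99.9 and 103 CPM in NT at 2 h against 92.4, 94.1 and 90.6, and 98.3, 98.3 and 98.9 at 24 h against 93.8, 91.2 and 84.2. In CPM the groups were apart at these time points, as were 20.8% and 25.3% of all genes, and overlapped at the other 4. On TPM values IFT88siRNA was lower in every library at 1 and 2 h and higher in every one at 8 h. No share of all genes was computed for TPM. The mean log2 fold change was -0.08 ± 0.0231 (adjusted p = 0.00532, edgeR). This call was lost without replicate 2 of every condition (adjusted p = 0.0504) and with limma on log2(TPM + 1) without a minimum TPM (0.0758). *Ift57* and *Ift20*, whose products bind each other, had -0.04 (95% interval -0.0844 to 0.0115, adjusted p = 0.225) and 0.05 (-0.0103 to 0.111, adjusted p = 0.183). IFT20 is also known at the Golgi. The values for the partners ranked between percentiles 5.14 and 60.4 of all genes, not matched for level, by absolute log2 fold change, and *Ift88* at 99.988. With TPM values in limma, 39.8% of all calls were higher in IFT88siRNA, against 53.5% with counts and TMM, and *Ift57* then also passed at -0.07 (adjusted p = 0.00984).

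**Figure D3:**
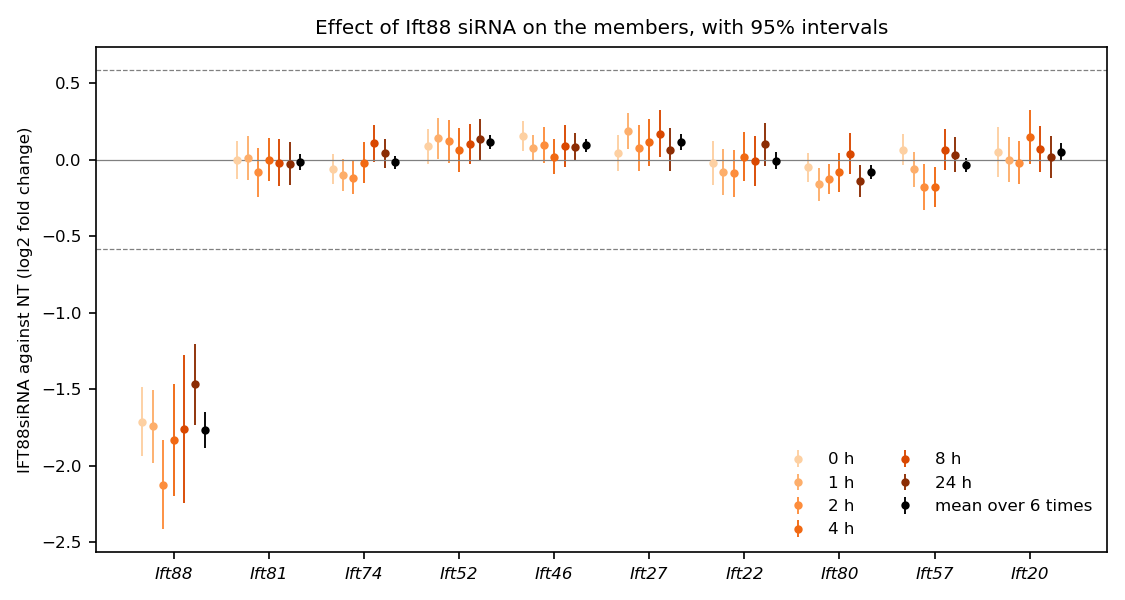
Log2 fold change of IFT88siRNA against NT for the 10 members, with 95% confidence intervals, at each time point (orange shades, 3 libraries against 3) and as the mean over 6 time points (black, 36 libraries). Dashed lines mark a 1.5-fold change. *Ift88* lies between -2.12 and -1.47, and every partner stays inside the dashed lines.

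At single time points few partners passed the test. At 0 h it was *Ift46* (log2 fold change 0.16 ± 0.0472, adjusted p = 0.0218, edgeR), 1 of 9 partners, against 19.5% of all genes. This call was lost without IFT88siRNA replicate 3 (adjusted p = 0.173), without NT replicate 2 (0.106) and without NT replicate 3 (0.0741). At 1 h *Ift27* rose (0.19 ± 0.0567, adjusted p = 0.0304) and *Ift80* fell (-0.16 ± 0.0510, adjusted p = 0.0358), 2 of 9, against 19% of all genes. *Ift27* was lost without NT replicate 1 (adjusted p = 0.0796) or 2 (0.129) or IFT88siRNA replicate 1 (0.0707) or 2 (0.0543) at 1 h. *Ift80* was lost without NT replicate 1 (0.122) or 3 (0.129) or IFT88siRNA replicate 1 (0.0638) or 2 (0.117), and DESeq2 gave neither call at 1 h (0.0698 for *Ift27* and 0.0671 for *Ift80*). Each of these 2 calls was lost under 11 of 18 alternatives, over which the *Ift80* log2 fold change ran from -0.307 to -0.101.

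At 2, 4, 8 and 24 h none of the 9 partners passed, against 2.76%, 3.85%, 4.25% and 8.66% of all genes. At an unadjusted p under 0.05 the counts were 3, 1, 1 and 1 partners, against 17.2%, 17.9%, 21.1% and 22.2% of all genes, and neither DESeq2 nor limma on log2(TPM + 1) gave any partner an adjusted p under 0.05. The lowest adjusted p of a partner with edgeR was 0.0912, for *Ift80* at 24 h. Over all 6 single time points the 95% intervals of the partners lay between -0.326 and 0.326. Libraries of the groups were apart for 2 of 9 partners at 0 h, 2 at 1 h, 3 at 2 h, 2 at 4 h, 2 at 8 h and 4 at 24 h, against 33.5%, 33.9%, 20.8%, 20.8%, 23.7% and 25.3% of all genes.

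When the 6 differences were tested together, *Ift52* (adjusted p = 0.00817), *Ift46* (0.0111), *Ift27* (0.0162), *Ift57* (0.0248) and *Ift80* (0.0256) passed with edgeR, 5 of 9 partners against 31.8% of all genes. None had a fold change over 1.5 at any time point, against 5.19%. Without replicate 1 of every condition all 5 calls were lost (adjusted p from 0.109 for *Ift46* to 0.433 for *Ift52*), as they were without replicate 2 (from 0.0889 for *Ift80* to 0.321 for *Ift27*), and without replicate 3 those of *Ift57* (0.0647) and *Ift80* (0.0697) were. With limma on log2(TPM + 1) *Ift52* (0.313) and *Ift46* (0.0671) were lost, and without the filter on low counts *Ift57* (0.130) and *Ift80* (0.0544). Of single libraries, the *Ift57* call was lost without NT replicate 2 at 2 h (adjusted p = 0.0606), NT replicate 1 at 4 h (0.0570), IFT88siRNA replicate 2 (0.0586) or 3 (0.0607) at 2 h, or IFT88siRNA replicate 1 (0.0554) or 3 (0.0518) at 4 h. The *Ift80* call was lost without NT replicate 1 (0.0528) or 3 (0.0569) at 1 h, IFT88siRNA replicate 2 at 1 h (0.0575) or IFT88siRNA replicate 3 at 24 h (0.0516). *Ift74* passed without IFT88siRNA replicate 3 at 8 h (0.0477), from an adjusted p of 0.110.

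The rest of the transport machinery also changed little with the siRNA. Of 8 other IFT-B genes 7 were tested, and in the mean over 6 time points *Traf3ip1* rose (log2 fold change 0.07, adjusted p = 0.0237, edgeR) while *Cluap1* (-0.11, 0.0218) and *Ttc30a1* (-0.42, 0.00585) fell. *Ttc30a1* has near-identical copies, so its counts are uncertain. Of 11 genes of IFT-A and dynein-2, 3 rose and 1 fell, with values from -0.16 for *Dync2h1*, the dynein-2 heavy chain, to 0.13 for *Dync2li1*, its light intermediate chain. None of these 18 genes passed a fold change of 1.5. Of 5 kinesin-2 genes, *Kif3c* rose (0.18, adjusted p = 1.01e-05) and *Kif17* fell (-0.61 ± 0.195, adjusted p = 0.0117), the latter past both thresholds. *Kif17* passed the filter at 0 h and in the fit of all libraries but at no other single time point. Of 6 tested genes among the RFX factors and *Foxj1*, *Rfx3*, *Rfx5* and *Rfx7* fell by 0.14, 0.15 and 0.16 on the log2 scale. The background for a fall in this comparison was 18.5% of all genes, and for a rise 21.3%.

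The members also changed with IL-1β. In the 18 NT libraries all 10 members passed an adjusted p of 0.05 when the 5 changes from 0 h were tested together, against 88.4% of 16048 genes. At 4 h 8 of 10 fell, against 29.7% of all genes, and *Ift81* rose, against 31.2%, though with TPM it was at -0.17. *Ift27* had 31.7, 29.5 and 32.2 CPM at 0 h and 20.8, 19.9 and 21.2 at 4 h, a log2 change of -0.59 ± 0.0690 (SE; adjusted p = 7.07e-08, edgeR). *Ift74* changed by -0.52 ± 0.0493, *Ift80* by -0.46 ± 0.0530, *Ift46* by -0.46 ± 0.0463 and *Ift88* itself by -0.43 ± 0.0957 (adjusted p = 3.72e-04 for *Ift88*). *Ift22*, *Ift52* and *Ift57* fell by 0.27, 0.22 and 0.21.

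Later the members diverged. At 8 h 7 of 10 were lower, against 25.3% of all genes, led by *Ift27* (-0.62 ± 0.0675) and *Ift80* (-0.59 ± 0.0526). *Ift80* had 98.4, 101 and 101 CPM at 0 h, 63.0, 71.2 and 64.9 at 8 h, and 98.3, 98.3 and 98.9 at 24 h, so its groups did not overlap between 0 and 8 h, and its 24 h value (log2 change -0.02, adjusted p = 0.763) showed no difference from 0 h past the test. At 24 h 6 of 10 were lower, against 23.2% of all genes, led by *Ift88* (-0.57 ± 0.0916, adjusted p = 1.64e-05), *Ift22* (-0.39) and *Ift57* (-0.36). The *Ift88* values in NT at 24 h, 6.06, 6.36 and 5.93 CPM, were below all 3 at 0 h. *Ift20* was the member with higher values, up by 0.38 ± 0.0783 at 2 h (adjusted p = 1.84e-04), 0.29 at 8 h and 0.25 at 24 h (27.1% and 21.7% of all genes were higher at these times), though with log2(TPM + 1) in limma it passed at no time and its value at 4 h was -0.06.

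*Ift27* and *Ift80* were the 2 members past both thresholds, against 50% of all genes, and both sat close to the fold limit of 0.585. Leaving out single NT libraries (replicate 3 at 0 h or 24 h, or any of the 9 at 2, 4 and 8 h) lowered this count to 1. At 1 h *Ift20* (0.22, adjusted p = 0.0239) and *Ift46* (0.13, adjusted p = 0.0193) rose with edgeR, against 26% of all genes. Under upper-quartile scaling, however, the members numbered 0 higher and 2 lower at 1 h, beside 3237 and 5459 of 16048 genes. With TPM they numbered 0 higher and 3 lower, beside 2134 and 5724 of the genes past the TPM minimum, and *Ift46* was at -0.059. At 2 h *Ift20* and *Ift57* rose (*Ift57* was at -0.07 with TPM) while *Ift52*, *Ift74* and *Ift81* fell, against 30.7% of all genes higher and 30.2% lower. These directions depended on scaling. The median log2 change of all genes moved by -0.109 at 2 h and -0.121 at 4 h under upper-quartile scaling, and by -0.131 at 1 h, -0.207 at 2 h and -0.203 at 4 h with log2(TPM + 1), relative to TMM. The members then numbered 1 higher and 7 lower at 2 h under upper-quartile scaling, beside 3796 and 6244 of 16048 genes. With TPM they numbered 0 higher and 7 lower, beside 2415 and 7156 of the genes past the TPM minimum. At 4 h both scales gave 0 higher and 8 lower. The genes called there numbered 3946 higher and 6485 lower under upper-quartile scaling, and 2815 and 7162 with TPM. *Ift81* changed sign with TPM in limma (-0.17, adjusted p = 0.107). Of all calls, 48.3% to 51.7% were higher with TMM over the 5 times, 37.2% to 44.7% under upper-quartile scaling and 25.2% to 38.7% with TPM.

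Some of these calls were lost when a single library was left out. At 1 h *Ift20* was lost without NT replicate 1 at 0 h (adjusted p = 0.187) or NT replicate 1 (0.0715) or 3 (0.0809) at 1 h, and *Ift46* without NT replicate 2 (0.0779) or 3 (0.0511) at 0 h or 2 at 1 h (0.0556). At 2 h *Ift52* was lost without replicate 3 at 0 h (0.0526) or 1 (0.0613) or 3 (0.0769) at 2 h, *Ift74* without replicate 3 at 0 h (0.0796) and *Ift81* without replicate 3 at 2 h (0.0736). *Ift57* at 2 h was lost without replicate 1 (0.0845) or 2 (0.153) at 0 h, 1 (0.0542) or 2 (0.0525) at 1 h, or 2 at 2 h (0.223). *Ift81* at 4 h was lost without replicate 2 (0.0618) or 3 (0.0576) of that time. At 8 h *Ift22* was lost without replicate 3 at 0 h (0.126) or 1 (0.0888) or 2 (0.103) at 8 h, and *Ift74* without replicate 3 at 0 h (0.109) or 2 (0.133) or 3 (0.0504) at 8 h. At 24 h *Ift20* was lost without replicate 1 at 0 h (0.0952) and *Ift27* without replicate 3 at 24 h (0.0653). All the other calls at single times in NT stayed when any 1 library was left out. *Ift20* at 4 h passed without replicate 3 at 0 h (0.0274), and *Ift80* at 1 h without replicate 2 at 1 h (0.0453), 3 at 4 h (0.0299) or 2 at 8 h (0.0493).

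**Figure D4:**
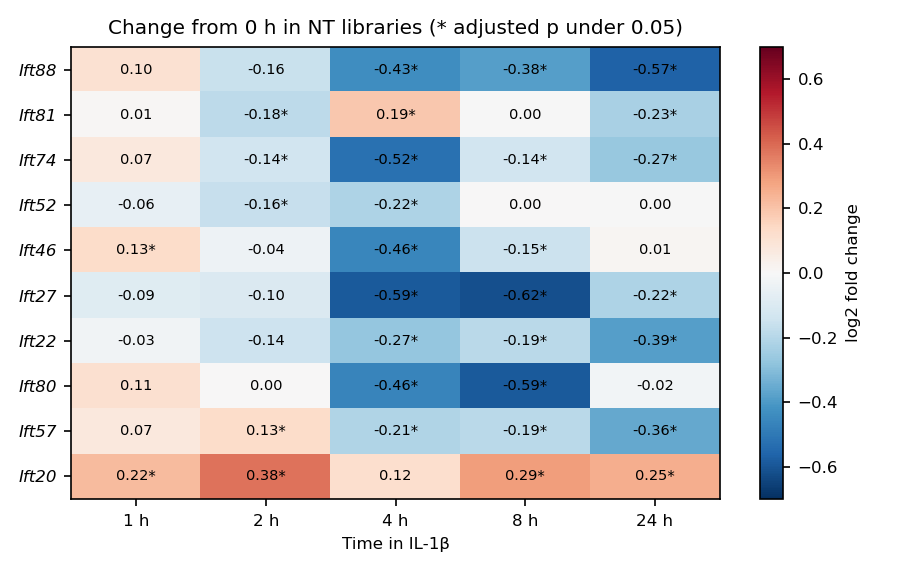
Log2 change from 0 h in the NT libraries for each member (rows) and time in IL-1β (columns), blue lower and red higher. Asterisks mark an adjusted p under 0.05 in edgeR with TMM. At 4 h 8 members are lower, and *Ift20* is the member with red cells at all times, which pass at no time on TPM values and turn to -0.06 at 4 h.

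Marker lists of cells also moved over these times. The summed TPM of 8 genes of cycling cells lay between 1980 and 2000 in NT at 0 h and between 1370 and 1420 at 4 h. At 4 h 6 of the 8 fell, against 29.7% of all genes, *Mki67* by 0.86 and *Top2a* by 0.60 on the log2 scale. *Mcm5* and *Pcna* rose, against 31.2% of all genes. The summed TPM of 6 fibroblast markers lay between 3140 and 3290 at 0 h, 4160 and 4410 at 2 h, 3260 and 3530 at 4 h, and 1530 and 1680 at 24 h. At 24 h 5 of these 6 fell, against 23.2% of all genes. The summed TPM of the chondrocyte markers lay between 28.3 and 32.4 at 0 h and between 15.7 and 17.4 at 24 h. The part of these lists in the changes of the members was not tested. In bulk RNA, fewer cells of a kind and less mRNA per cell cannot be told apart. Among the genes listed beside the members, 9 of 11 genes of IFT-A and dynein-2 fell at 4 h, against 29.7% of all genes, 4 of them past both thresholds, against 12.4%. These were *Wdr35* (-1.09), *Wdr19* (-0.91) and *Ift140* (-0.89) of IFT-A and *Wdr60* (-0.74), a dynein-2 intermediate chain. *Wdr35* was at -1.24 at 8 h. Of the other IFT-B genes, 4 of 7 fell at 4 h, also against 29.7%, and *Ttc30b*, near identical to *Ttc30a1*, fell by 0.69 at 1 h and 1.11 at 2 h. *Rfx7* fell by 0.79 and *Rfx5* rose by 0.74 at 4 h, and *Foxj1* fell by 1.16 at 24 h.

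**Figure D5:**
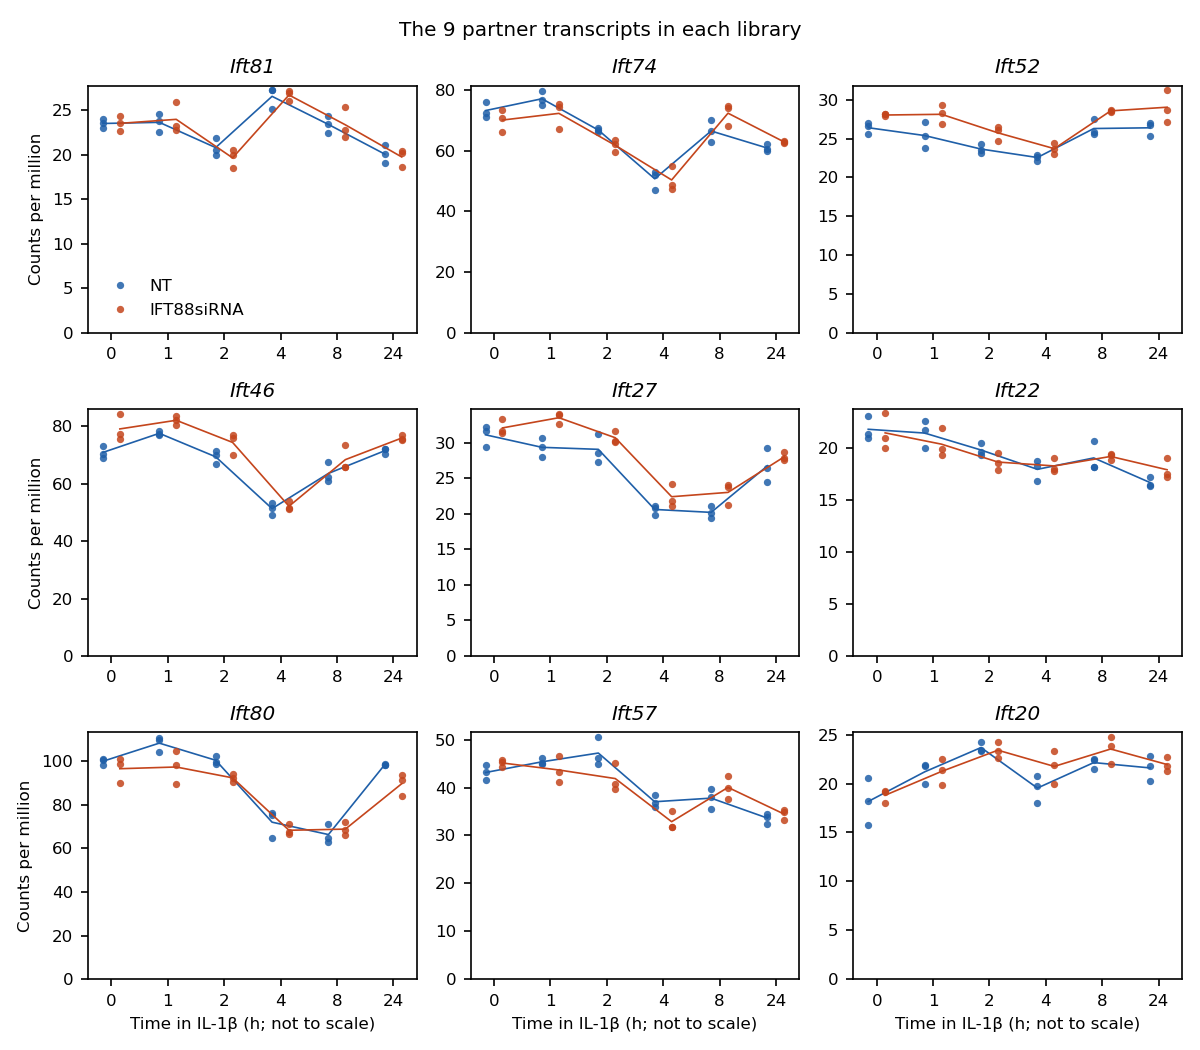
CPM of the 9 partners against the time in IL-1β (categories, not to scale), one point per library and lines through the means of 3 libraries, NT in blue and IFT88siRNA in orange. In both groups *Ift46*, *Ift27* and *Ift80* have lower values at 4 h than at 0 h.

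The course over time was not found to differ between the siRNA groups for any member. In the test of the 5 differences in change from 0 h, no member passed, against 5.53% of 16710 genes, or 1.2% with a fold change over 1.5 as well. At an unadjusted p under 0.05 there were 2, *Ift57* and *Ift74*, against 16.8% of all genes, and DESeq2 called 0 at an adjusted p under 0.05. *Ift57* had the lowest adjusted p (0.0836, edgeR). Its log2 difference between the groups' changes was -0.24 ± 0.0805 at 2 h and -0.24 ± 0.0828 at 4 h, where the IFT88siRNA libraries had 31.8, 35.0 and 31.8 CPM and the NT libraries 38.5, 36.7 and 35.9. *Ift57* passed without IFT88siRNA replicate 1 at 2 h (adjusted p = 0.0321), replicate 2 at 4 h (0.0467) or replicate 3 at 8 h (0.0392), under upper-quartile scaling (0.0449) and with TPM in limma (0.00637), so the call turned on the setting. *Ift88* had an adjusted p of 0.420, and of 0.0458 without IFT88siRNA replicate 3 at 8 h. For the other 8 members the adjusted p lay at or above 0.232.

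The genes whose level most resembled that of *Ift88* over the 36 libraries did not include any partner. Pearson's r of log2 CPM was 0.880 for *Atp6v1b2*, a subunit of the vacuolar proton pump, 0.855 for *Ago3*, 0.854 for *Trappc2* and 0.849 for *Ergic2*, among 12077 genes with a mean of at least 50 counts. The points share libraries and the siRNA groups. *Ift88* is itself split by siRNA group, so genes picked for likeness to it tend to be lower in IFT88siRNA libraries by that choice. These 4 genes had mean log2 fold changes from -0.62 (*Ergic2*) to -0.35 (*Trappc2*), which is no separate result. The absence of partners likewise restates that their siRNA changes were small. The partners had r from -0.389 (*Ift52*) to 0.307 (*Ift80*).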

How the data were processed

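The authors aligned the reads to GRCm38 with HISAT2 2.1.0 and deposited raw read counts per Ensembl gene from featureCounts (Subread 1.6.3, default parameters), and TPM values from Salmon 0.9.1. Counts were tested with edgeR 4.0.16 (R 4.3.3): TMM scaling, filterByExpr, quasi-likelihood F-tests and Benjamini-Hochberg adjustment over all genes tested. Each time point was fitted alone (3 libraries against 3), the mean and joint siRNA effects and the response on all 36 libraries, and IL-1β on the 18 NT libraries. A call needed an adjusted p under 0.05, and a fold change over 1.5 where stated. SE is the log2 fold change over the root of F. Alternatives were other scalings, no filter, DESeq2 1.42.0, limma 3.58.1 on log2(TPM + 1), a replicate block and leaving out libraries. Code was tested on simulated data. In these, the fit of 3 libraries against 3 recovered fewer true changes of low-count genes than first asked, and that criterion was replaced. The text names all members, listed genes past the test, and the 5 genes most like *Ift88*, of which 1 is not reported here. Members and lists were chosen with earlier results of these data known. Total counts set the precision of low genes such as *Ift88*.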

Additional observations from a re-analysis of the deposited data

Results flagged for a closer look

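*Ift74* was lower in every IFT88siRNA library than in every NT library at 2 h (log2 fold change -0.12) and higher in every one at 24 h (0.04). It was picked by a scan of all members and times for libraries apart in both directions. Of all genes, 10.6% were lower in this way at 2 h and 12.4% higher at 24 h. Neither value passed the edgeR test (adjusted p = 0.248 and 0.647), and the difference between these 2 time points was not tested on its own. The test of all 5 differences in change from 0 h gave *Ift74* an adjusted p of 0.232.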

How the results depend on the processing

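Of 2999 log2 changes of members recomputed under the alternatives, 2828 kept their side of the threshold and, where called, their direction; 161 values that were not called changed sign. With limma on log2(TPM + 1) or log2(TPM + 0.1), or without a TPM minimum, 0 members passed both thresholds at 4 and 8 h between the siRNA groups, and without the minimum 0 also at 1, 2 and 24 h. Without a fold threshold the counts were 2 at 0 h, 3 at 1 h, 6 for the joint test, 5 for the mean and 10 for IL-1β in NT. For IL-1β in NT, 1 member passed both with DESeq2 or its size factors and 4 with upper-quartile scaling or TPM, and leaving out libraries gave 1 to 3. The joint siRNA test had 6 members with an adjusted p under 0.05, 1 without replicate 1 or 2, and 7 without IFT88siRNA replicate 3 at 8 h. Leaving out replicates, the mean siRNA effect had 3 to 5 members with an adjusted p under 0.05, the 3 without replicate 2, where *Ift27* (0.0503) and *Ift80* (0.0504) were lost. On TPM in NT, *Ift46* at 1 h (-0.059, or -0.0595 with the pseudocount of 0.1), *Ift57* at 1 h (-0.12, or -0.13) and 2 h (-0.072, or -0.073) and *Ift81* at 4 h (-0.17, or -0.18) changed sign. The causes were not tested. DESeq2 gave no adjusted p for *Ift88* at 4 h. Same-numbered libraries of the siRNA groups had deviations correlated from -0.228 to 0.458 over 18 pairs, 7 over 0.1, so the numbers were not taken to pair them. With a replicate block the members past both thresholds numbered 1 at every time point, for the joint test and for the mean, 0 for the response and 2 for IL-1β in NT. Depth limits *Ift88* most, with as few as 29 counts.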
